A study of Mus musculus with 30 samples.

Results

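Transcripts of 10 carboxylesterase genes were measured in the livers of 30 male C57BL6/J mice that ate casein or soy diets with a normal or a low content of methionine. The genes are Ces1b, Ces1c, Ces1d, Ces1e, Ces1f, Ces1g, Ces2a, Ces2e, Ces3a and Ces3b. They were chosen by gene symbol, and all 10 are among the 14173 genes of the count tables. Of 10 further genes of the family, Ces2b, Ces2g and Ces4a have values, and the other genes were not analysed here.

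Each diet was fed to 10 mice, and livers of 6 of them were sequenced, 1 library per mouse. Cas-20% held 20% casein with 0.57 g methionine and 0.41 g cysteine per 100 g, and Cas-5% held 5% casein with 0.15 and 0.1 g. Soy-20% held 20% soy with 0.22 g of each amino acid, Soy-20% + SAA was the same diet with methionine and cysteine added to 0.58 and 0.41 g, and Soy-10% held 11.5% soy by its label with 0.13 g of each. Mice arrived at 9 weeks of age and first ate Cas-20% (the casein groups) or Soy-20% (the soy groups). At 12 weeks they moved to the diets above for 12 weeks, and they were killed after a short fast at an age given as 6 months. Casein and soy mice therefore differed in protein source before the switch as well, and these periods cannot be told apart. In Cas-5% and Soy-10%, less methionine came with less protein, which cannot be told apart either, whereas Soy-20% and Soy-20% + SAA differed in the added sulfur amino acids.

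Carboxylesterases are serine hydrolases that cleave esters, amides and thioesters. In hepatocytes most are held in the lumen of the endoplasmic reticulum, where they hydrolyse drugs and other foreign esters as well as cellular lipids such as triacylglycerol and cholesteryl esters. The mouse genome holds many copies in tandem, which arose by duplication and remain similar in sequence.

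All 10 genes lie on chromosome 8 (GRCm38). The 6 Ces1 genes follow each other on the minus strand in the order Ces1b to Ces1g over 280.6 kb, from base 93056728 to base 93337308. The others lie on the plus strand in a cluster that spans 416.1 kb with Ces2b, Ces2g and Ces4a, from the start of Ces2a at base 104734003. The libraries count the 3′ ends of transcripts, so the likeness of those ends sets how well reads can be told apart. The 50-base words of the last 500 bases of each transcript were sought anywhere in the transcripts of other genes. Of those of Ces1b, 25.1% also occur in Ces1c and the reverse, 31.3% of those of Ces3a occur in Ces3b, and 9.98% of those of Ces2a occur in Ces2b, Ces2e or Gm7208. The share was 5.99% in Ces3b, 2.22% in Ces1f and 1.77% in Ces1d, and no word from the ends of Ces1e, Ces1g or Ces2e was found in another gene. The ends of Ces1b and Ces1c are 96.1% identical, against a median of 63.8% over the 45 pairs of genes. How reads that match several genes were counted is not given in the sources used here. Values of Ces1b, Ces1c, Ces2a, Ces3a and Ces3b are uncertain to that extent, and those of Ces1d and Ces1f to a smaller one. Gm45909 lies within Ces1d on the same strand and Gm45724 within Ces3a on the opposite strand.

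The upstream sequences of Ces2a and Ces1e are shown because these genes separated the casein livers from the soy livers, and that of Ces3b because it was lower on Cas-5%. Each is the 250 bases before the transcript start in RefSeq (GRCm38.p6), 5′ to 3′. Capitals mark AGGTCA, the core of many nuclear receptor sites, in Ces2a, and GTTAAT, a core of HNF1 sites, followed by the TATA box TATAAA in Ces3b.
Ces2a, chr8:104733753-104734002, plus strand: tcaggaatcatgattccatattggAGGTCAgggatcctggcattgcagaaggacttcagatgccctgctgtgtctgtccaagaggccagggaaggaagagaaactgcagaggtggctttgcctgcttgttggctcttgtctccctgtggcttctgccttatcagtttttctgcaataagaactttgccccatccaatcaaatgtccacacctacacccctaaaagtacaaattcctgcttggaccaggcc
Ces1e, chr8:93229620-93229869, minus strand: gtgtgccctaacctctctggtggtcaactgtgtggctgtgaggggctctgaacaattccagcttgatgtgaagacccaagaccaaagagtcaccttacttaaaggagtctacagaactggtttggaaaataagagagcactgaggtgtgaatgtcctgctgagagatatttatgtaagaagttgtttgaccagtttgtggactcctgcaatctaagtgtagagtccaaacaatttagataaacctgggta
Ces3b, chr8:105083505-105083754, plus strand: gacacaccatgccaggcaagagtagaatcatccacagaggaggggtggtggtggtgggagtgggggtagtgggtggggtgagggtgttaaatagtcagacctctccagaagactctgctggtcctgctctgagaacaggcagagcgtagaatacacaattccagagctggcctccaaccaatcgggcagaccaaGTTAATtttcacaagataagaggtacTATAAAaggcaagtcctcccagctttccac
Windows for 7 of the 10 genes were found in the table. On either strand, AGGTCA occurs in 14.02% of all 32851 windows, GTTAAT in 6.43% and TATAAA in 12.4%. Counting from -1 at the base before the start, AGGTCA of Ces2a lies at -226 to -221, and GTTAAT and TATAAA of Ces3b lie at -56 to -51 and -30 to -25. TATAAA also occurs in Ces1g, at -26 to -21 on the opposite strand. CAAAGTCCA, a form of the HNF4A site found in 0.384% of windows, and TGATGNAA, a form of the amino acid response element found in 3.45%, occur in none of the 7. These are matches of letters, and binding was not measured.

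Libraries held 7694015 to 14565542 counts, and the 10 genes took 0.345% to 0.657% of them. Livers 3 to 6 of Soy-20% + SAA stood apart. Their counts rose with the GC content of the 3′ end, with a slope of 0.0575 to 0.207 (log2 per 10% GC), against -0.0258 and -0.0251 in livers 1 and 2 of that diet and -0.0677 to 0.0352 in the other 24 libraries. Where livers 3 to 6 change a call or a value that rests on Soy-20% + SAA, it is therefore given without them as well. Such fits keep only livers 1 and 2 of that diet, so a call can also end because fewer livers remain. Liver 4 of Soy-10% held 8993 normalized counts of pancreatic acinar markers (9 of 11 with values), against 207 to 370 in the other livers of that diet. In the fits repeated without it, 1 call of the 10 genes given below ended, the difference of effects for Ces1c. Cas-20% against Soy-10% was not refitted without it. Hepatocyte markers (7 of 8 with values) summed to medians of 976530 to 1083890 by diet, and immune cell markers (8 of 8) to medians of 1913 to 2089. Red blood cell markers (5 of 5) had median sums of 25137 on Cas-20% and 14347 to 16556 on the other diets. They were lower on Cas-5% than on Cas-20% for 4 of 5, where 24.9% of all genes were called. They were higher on Cas-20% than on Soy-20% + SAA for 4 of 5, where 2.43% of all genes were called. Without livers 3 to 6 of Soy-20% + SAA, edgeR called 0 of 5 between these control diets (0.024% of all genes). Then 4 had an unadjusted p under 0.05 (7.25% of all genes). Cfd, the 1 of 6 adipocyte markers with values, was lower on Cas-5% than on Cas-20% (log2 -1.77, edgeR adjusted p = 0.0115) and than on Soy-10% (-3.55, adjusted p = 0.00015). Of the 2 of 7 intestinal markers with values, Fabp2 fell by 1.02 (adjusted p = 0.000494) and Lgals4 rose by 1.49 (adjusted p = 0.00126) in casein restriction. The part of these markers in the results was not tested. In whole liver, fewer cells of a type and less RNA per cell cannot be told apart.

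Levels are normalized counts, which are raw counts divided by a size factor of the library. With 3′ end counting a transcript gives about the same number of reads whatever its length, so levels of different genes were compared on this scale. Ces1c, which encodes an esterase secreted into plasma, was the most abundant of the 10 in each diet, with a median share of 40.5% to 53.1% of the family's counts. Ces3a was second with 20.0% to 25.8%, and Ces1b was the least abundant with 0.650% to 0.915%. The 10 genes together summed to 46257 ± 2775 (mean ± SD, n = 6) on Cas-20%, 58477 ± 5398 on Cas-5%, 56537 ± 2616 on Soy-20%, 55049 ± 4498 on Soy-20% + SAA and 62903 ± 2446 on Soy-10%.

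**Figure D1:**
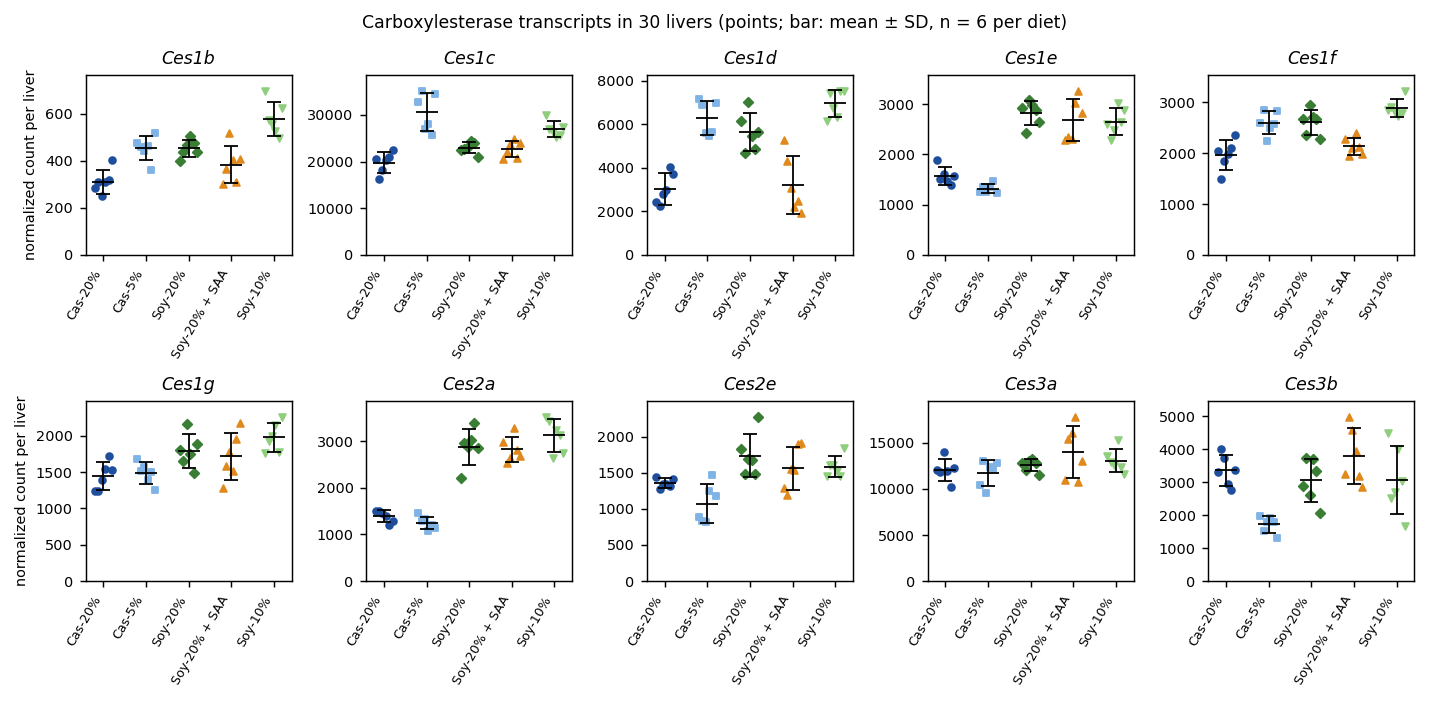
Normalized counts (vertical axes from 0) of the 10 genes in each liver, by diet on the horizontal axis; points are livers and bars are mean ± SD, n = 6. Ces2a and Ces1e are low in all casein livers, Ces1d is low on Cas-20% and in most Soy-20% + SAA livers, and Ces3b is low on Cas-5%.

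Levels of 9 of the 10 genes differed when the 5 diets were compared at once (edgeR quasi-likelihood F test, adjusted p of 0.05 or less), where 43.4% of all genes tested were called. The exception was Ces3a, with an adjusted p of 0.21. The same 9 were called without livers 3 to 6 of Soy-20% + SAA, where 26.2% of all genes were. They were also called with the GC slope of the library in the fit, where 28.2% of all genes were. In the 10 pairs of diets, Ces1e was called in 7, Ces2a in 6, Ces1b, Ces1c, Ces1d and Ces1f in 5 each, Ces2e and Ces3b in 4 each, Ces1g in 2 and Ces3a in 0. Pairs that share a diet share its livers and are not independent.

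Casein restriction, Cas-5% against Cas-20%, addresses how the liver responds to less casein, which lowers protein, methionine and cysteine together. It raised 4 genes, all of the Ces1 cluster, and lowered 2, so that 6 of 10 were called where 24.9% of all genes tested were (11.6% higher and 13.3% lower). The median log2 fold change was 0.02 over the 10 and 0.02 over all genes. Livers of the diets did not overlap for 3 of the 10, against 12.9% of all genes. Ces1d, Ces1c, Ces1b and Ces1f rose, Ces3b and Ces1e fell, and Ces1g, Ces2a, Ces2e and Ces3a did not pass the test.

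Ces1d encodes a triacylglycerol hydrolase of the endoplasmic reticulum that takes part in the assembly of very low density lipoprotein. It ranged from 2227 to 4036 with a median of 2885 on Cas-20%, and from 5447 to 7182 with a median of 6271 on Cas-5%. Each Cas-5% liver was above each Cas-20% liver. The log2 fold change was 1.07 ± 0.13 (SE), with an adjusted p of 2.18e-05. Ces1c ranged from 16216 to 22415 (median 20423) on Cas-20% and from 25722 to 35157 (median 30410) on Cas-5%, again without overlap, and rose by 0.64 ± 0.10 on the log2 scale (adjusted p = 0.000157).

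Ces1b and Ces1f rose by less and their livers overlapped. Ces1b went from a median of 309 (248 to 402) to 460 (362 to 520), a log2 fold change of 0.56 ± 0.10 (adjusted p = 0.00081). Ces1f went from a median of 2017 (1484 to 2351) to 2585 (2233 to 2841), a log2 fold change of 0.41 ± 0.09 (adjusted p = 0.00387). Because Ces1b shares much of its end with the far more abundant Ces1c, their ratio was followed too. Ces1b was 1.37% to 1.91% of Ces1c on Cas-20% and 1.305% to 1.64% on Cas-5%, 1.76% to 2.09% on Soy-20%, 1.47% to 2.18% on Soy-20% + SAA and 1.94% to 2.32% on Soy-10%. The Soy-10% livers were thus above all casein livers in this ratio, and the part of shared reads in the Ces1b values was not tested.

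Ces3b was the member that fell most. It ranged from 2758 to 4002 with a median of 3352 on Cas-20% and from 1322 to 1963 with a median of 1789 on Cas-5%. The diets did not overlap, and Ces3b fell by 0.95 on the log2 scale (SE 0.11, adjusted p = 6.36e-06). Its neighbour Ces3a, with a transcript 95.4% identical to that of Ces3b, had a log2 fold change of -0.02 ± 0.09 (adjusted p = 0.88). As a share of Ces3a, Ces3b was 24.7% to 33.7% on Cas-20% and 10.3% to 18.7% on Cas-5%, without overlap. Ces1e, which encodes egasyn, the esterase that holds beta-glucuronidase in the endoplasmic reticulum, fell by 0.24 (SE 0.08, adjusted p = 0.0274) from a median of 1542 to 1299 with overlapping livers. That call was lost when any of 4 livers was left out (livers 1, 3 and 6 of Cas-5% or liver 1 of Cas-20%), with an adjusted p of at most 0.059, and with the GC slope of the library in the fit (0.066).

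**Figure D2:**
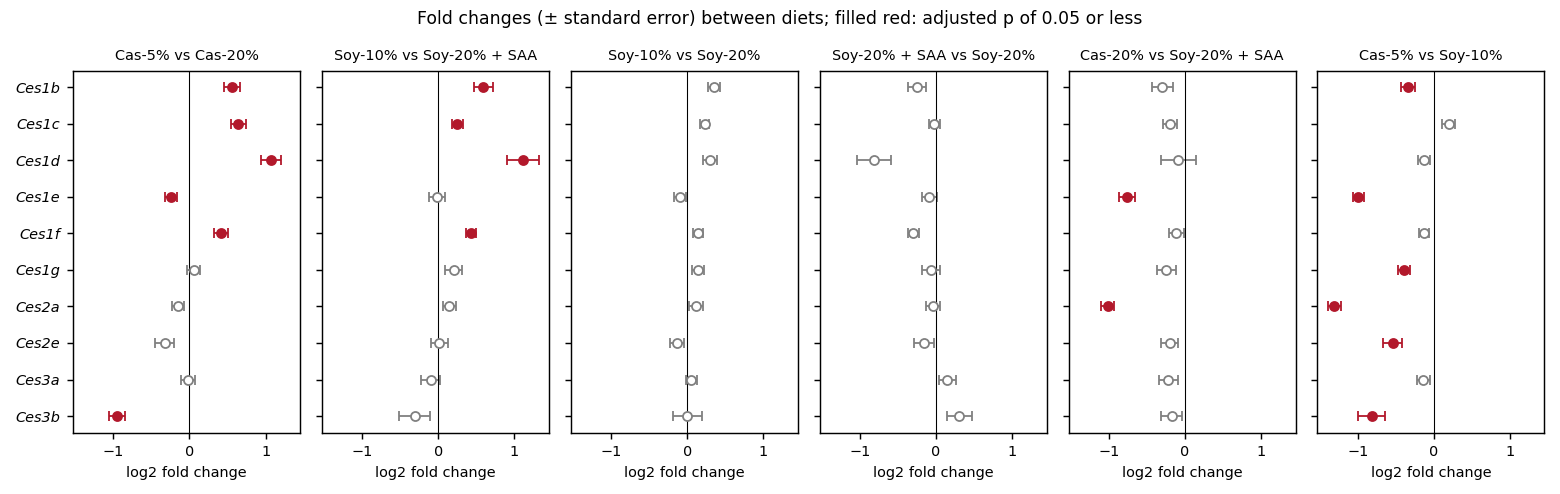
Log2 fold change (horizontal axis) of each gene in 6 comparisons of diets, with the standard error as the bar, n = 6 livers per diet; filled red points have an adjusted p of 0.05 or less. Ces1b, Ces1c, Ces1d and Ces1f lie to the right in both restrictions against the supplemented or casein control, and Ces2a and Ces1e lie far to the left where casein is set against soy.

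Soy restriction was compared with each of 2 soy controls. Against Soy-20% + SAA, which matched the sulfur amino acids of Cas-20%, Soy-10% raised Ces1d, Ces1b, Ces1f and Ces1c, so 4 of 10 were called where 17% of all genes were (8.51% higher), and none fell. The median log2 fold change was 0.17 over the 10 and -0.01 over all genes. Livers did not overlap for 3 of the 10, against 6.25% of all genes. Ces1f went from a median of 2112 (1944 to 2394) to 2824 (2724 to 3225), a log2 fold change of 0.43 ± 0.07 (adjusted p = 0.00131), and 0.44 (adjusted p = 0.0175) without livers 3 to 6. Ces1b went from a median of 383 (302 to 518) to 564 (497 to 698), by 0.59 ± 0.12 on the log2 scale (adjusted p = 0.00741), and by 0.80 (adjusted p = 0.0066) without those livers.

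Ces1c rose by 0.25 ± 0.07 (adjusted p = 0.0307), from a median of 22964 (20587 to 24907) to 26764 (25351 to 30037). This call did not hold without livers 3 to 6 of Soy-20% + SAA (adjusted p = 0.0688). The log2 fold change was then larger, 0.33, with only livers 1 and 2 of that diet left. It also did not hold without any of 5 livers left out alone (highest adjusted p 0.0734). These were liver 5 of Soy-20% + SAA and livers 1, 2, 3 and 6 of Soy-10%.

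Relative to its mean, Ces1d on Soy-20% + SAA had the widest spread of the 10 genes in a diet, with a coefficient of variation of 41.2%. On Soy-20% + SAA, livers 1 and 2 were at 5295 and 4319, and livers 3 to 6 were at 1938 to 3096. Soy-10% livers ranged from 6150 to 7537 with a median of 7108, above all of them. The log2 fold change was 1.11 ± 0.21 (adjusted p = 0.00382), and it was 0.53 (adjusted p = 0.0207) without livers 3 to 6 and 0.57 (adjusted p = 0.0047) with the GC slope of the library in the fit. The last 200 bases of Ces1d are 29.5% GC, the lowest of the 10 genes, which ranged up to 45.5% in Ces1e. The mean of livers 1 and 2 was 1.98 times that of livers 3 to 6 for Ces1d and 0.72 to 1.13 times for the other 9 genes. This ratio was 0.77 for Ces1g (33% GC) and 0.97 for Ces2a (33.5% GC). It was 1.06 for Ces2g, a family gene outside the 10 with the same 29.5% GC as Ces1d. The part of GC content in the Ces1d difference was not tested. Without livers 3 to 6, 4 of 10 were called where 2.54% of all genes were. Ces1g, which encodes another hepatic lipid hydrolase, was then called in place of Ces1c (log2 0.45, adjusted p = 0.0484).

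**Figure D3:**
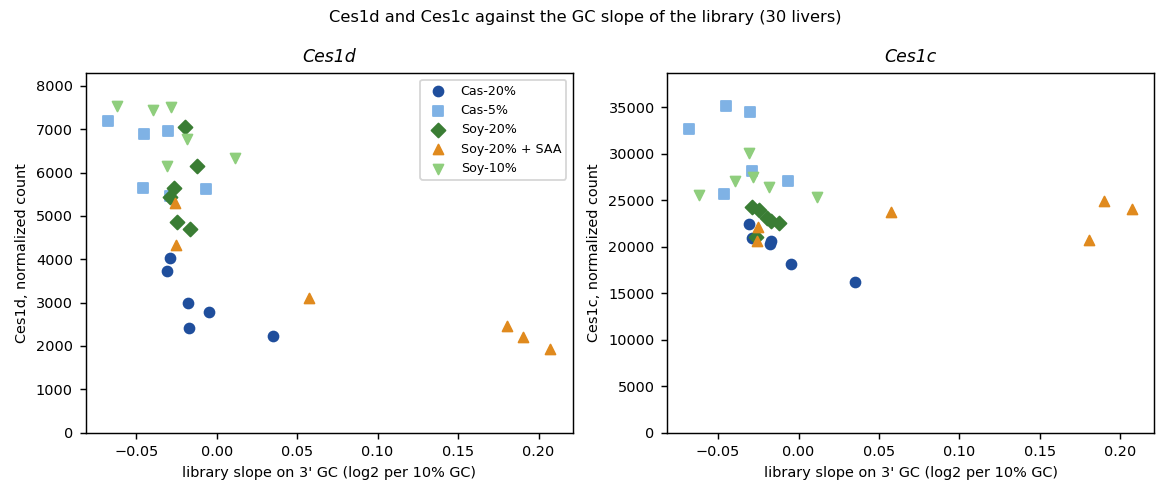
Normalized counts of Ces1d and Ces1c (vertical axes from 0) against the slope of log2 counts on the GC content of 3′ ends in each library (horizontal axis, log2 per 10% GC), 30 livers in 5 diets. The 4 Soy-20% + SAA libraries with slopes of 0.0575 to 0.207 are the lowest of that diet for Ces1d and not for Ces1c.

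Against Soy-20%, which was not supplemented, Soy-10% called 0 of 10 genes with edgeR, where 0.866% of all genes were called, and 4 had an unadjusted p under 0.05 (12.3% of all genes). DESeq2 called Ces1b and Ces1c, and 1.53% of all genes. Ces1c was the gene without overlap, 1 of 10 against 1.36% of all genes, with 21025 to 24327 on Soy-20% and 25351 to 30037 on Soy-10% (log2 0.23 ± 0.06, adjusted p = 0.0969). Ces1b had a log2 fold change of 0.35 ± 0.08 (adjusted p = 0.055) and Ces1d of 0.30 ± 0.09 (adjusted p = 0.155).

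Adding sulfur amino acids to the soy diet, Soy-20% + SAA against Soy-20%, called 0 of 10 genes with edgeR, where 0.00838% of all genes were called, and 3 had an unadjusted p under 0.05 (24.2% of all genes). No gene separated the livers, against 2.02% of all genes. DESeq2 called Ces1d and Ces1f, and 6.16% of all genes, and edgeR called 13.3% of all genes without liver 1 of Soy-20% + SAA. Ces1d ranged from 4704 to 7044 (median 5544) on Soy-20% and had a log2 fold change of -0.82 ± 0.22 (adjusted p = 0.0685), which was -0.23 (adjusted p = 0.809) without livers 3 to 6. Ces1f ranged from 2288 to 2948 (median 2672) on Soy-20%, above its median with the supplement, with a log2 fold change of -0.30 ± 0.08 (adjusted p = 0.068), also -0.30 without livers 3 to 6 (adjusted p = 0.672).

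The protein source gave the widest separation in the family. Ces2a, a hepatic and intestinal carboxylesterase, ranged from 1072 to 1511 (median 1311) in the 12 casein livers and from 2211 to 3514 (median 2916) in the 18 soy livers. Ces1e ranged from 1228 to 1891 (median 1429) in casein livers and from 2279 to 3265 (median 2732) in soy livers. For both genes, each casein liver was below each soy liver, whatever the methionine content of the diet. Of 11992 genes, 3 (0.025%) separated the livers in this way, and the other one, named after its values were seen, was Cyp3a11, a drug-metabolising cytochrome P450 with 4586 to 15209 in casein livers and 20170 to 44024 in soy livers.

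**Figure D4:**
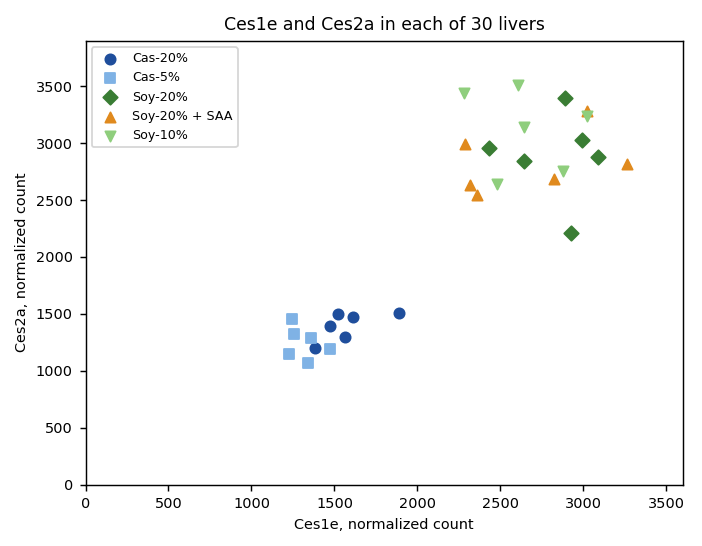
Normalized counts of Ces2a (vertical axis) against Ces1e (horizontal axis) in each of 30 livers, both axes from 0, with diets by colour and shape. The 12 casein livers lie at 1228 to 1891 for Ces1e and 1072 to 1511 for Ces2a, and the 18 soy livers at 2279 to 3265 and 2211 to 3514.

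Between the control diets matched for sulfur amino acids, Cas-20% and Soy-20% + SAA, Ces2a and Ces1e were lower on casein and were the 2 of 10 called, where 2.43% of all genes were (1.01% lower on casein). The share of all genes was 15.1% without liver 1 of Soy-20% + SAA, 0.0748% without liver 6 and 0.024% without livers 3 to 6, where 1 of 10 was called. The same 2 did not overlap, against 2.69% of all genes. Ces2a was at 1197 to 1511 (median 1431) on Cas-20% and 2543 to 3281 (median 2750) on Soy-20% + SAA, a log2 difference of -1.02 ± 0.08 (adjusted p = 5.14e-05). It was -0.99 (adjusted p = 0.00681) without livers 3 to 6. Ces1e was at 1385 to 1891 (median 1542) and 2290 to 3265 (median 2589), a log2 difference of -0.76 ± 0.10 (adjusted p = 0.00689). Without livers 3 to 6 it was -0.57 with an adjusted p of 0.252. The livers kept, 1 and 2 of Soy-20% + SAA, were at 2290 and 2357, above each Cas-20% liver.

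Between the restricted diets, Cas-5% and Soy-10%, 6 of 10 genes were lower on casein, where 10.7% of all genes were called (6.14% lower on casein), and none was higher. The median log2 difference was -0.36 over the 10 and 0.01 over all genes. Livers did not overlap for 3 of the 10, against 5.83% of all genes. Ces2a (log2 -1.31 ± 0.09, adjusted p = 4.39e-08) and Ces1e (-0.99 ± 0.07, adjusted p = 1.84e-07) differed most. Ces1g was at 1258 to 1684 (median 1508) on Cas-5% and 1761 to 2253 (median 1958) on Soy-10%, without overlap (log2 -0.39 ± 0.08, adjusted p = 0.00302).

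Ces3b, Ces2e and Ces1b were also lower on Cas-5% than on Soy-10%, with overlapping livers. Ces3b was at 1677 to 4492 (median 2866) on Soy-10%, the widest spread relative to its mean of the 10 genes there, and differed by -0.82 ± 0.17 on the log2 scale (adjusted p = 0.00541). Ces2e was at 822 to 1473 (median 1031) on Cas-5% and 1448 to 1845 (median 1563) on Soy-10%, a difference of -0.54 ± 0.12 (adjusted p = 0.00949). Ces1b differed by -0.34 ± 0.09 (adjusted p = 0.0218), a call lost without liver 1 of Soy-10% (adjusted p = 0.0508).

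The 4 remaining pairs of diets, added after the data were seen, set casein against soy at unlike methionine contents. Cas-20% was lower than Soy-20% for 5 of 10 genes, where 2.69% of all genes were called (1.24% lower), and lower than Soy-10% for 8 of 10, where 17.4% were called (8.57% lower). Cas-5% differed from Soy-20% for 5 of 10 (17.1% of all genes) and from Soy-20% + SAA for 7 of 10 (27.6%), which was 5 (8.11%) without livers 3 to 6. In the same order, livers did not overlap for 4 genes (2.42% of all genes), 8 (7.97%), 5 (8.63%) and 5 (11.8%). Ces2a and Ces1e were lower on casein in all 6 pairs of a casein and a soy diet, with log2 differences of -1.31 to -1.02 and -1.09 to -0.76. In 1 of these pairs Ces1e was not called without livers 3 to 6 of Soy-20% + SAA, as given above. Ces3a had log2 differences of -0.24 to -0.06 in the 6 pairs, none called, and its livers ranged from 9618 to 13999 on casein and from 10766 to 17788 on soy.

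Ordered by mean, Ces2a and Ces1e ran from Cas-5% through Cas-20% to the soy diets, and no step between neighbouring soy diets was called. For Ces1e the step from Cas-5% to Cas-20% was called, and for both genes the step from Cas-20% to the lowest soy diet was. Ces3b had a called step only from Cas-5% to Soy-20%, the next diet up. For Ces1d no step between neighbours was called, although the lowest and highest diet means, on Cas-20% and Soy-10%, differed 2.296-fold.

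Calls of neighbours in a cluster were not all alike. In casein restriction Ces1b, Ces1c and Ces1d rose, Ces1e fell, Ces1f rose and Ces1g did not pass the test. In the other cluster Ces3b fell and its neighbour Ces3a did not pass. The call of Ces1e was lost in some fits, as given above. Ces1g (log2 0.05) and Ces3a (-0.02), which did not pass, show no direction.

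**Figure D5:**
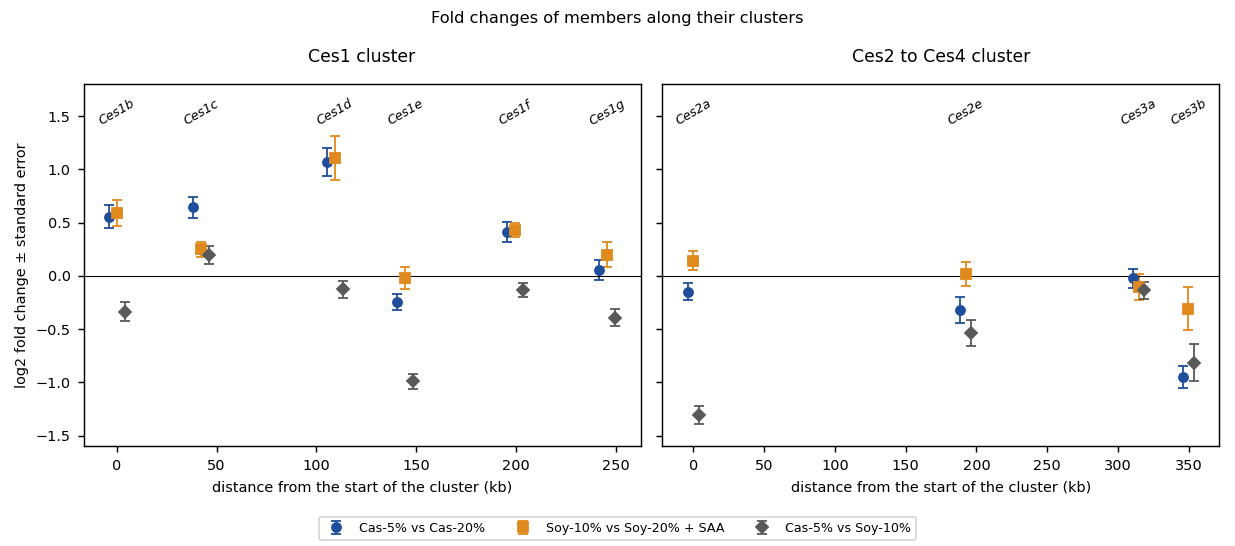
Log2 fold change with standard error (vertical axis) of each gene by distance from the start of its cluster (horizontal axis, kb), in 3 comparisons, n = 6 livers per diet; points are shifted sideways for clarity. Ces1e is at -0.99 for Cas-5% against Soy-10%, between Ces1d at -0.13 and Ces1f at -0.13.

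Whether the effect of restriction differed between casein and soy was tested in 24 livers as the casein effect minus the soy effect against Soy-20% + SAA. It was called for 1 of 10 genes, near the 8.69% of all genes called. Ces1c rose more on casein, by 0.39 ± 0.12 on the log2 scale (adjusted p = 0.0467), which was 0.31 (adjusted p = 0.311) without livers 3 to 6 and was lost in 16 of 24 fits that left out a liver, with a highest adjusted p of 0.0848. With the GC slope of the library in the fit, Ces1c was not called (adjusted p = 0.095) and Ces1e was (-0.41, adjusted p = 0.0411). Ces3b had a difference of -0.65 ± 0.24 (adjusted p = 0.0915) and Ces2a of -0.30 ± 0.12 (adjusted p = 0.122). With Soy-20% as the soy control, Ces1c (0.40, adjusted p = 0.0334), Ces1d (0.76, adjusted p = 0.00747) and Ces3b (-0.96, adjusted p = 0.0149) were called, 3 of 10 against 5.99% of all genes.

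Of the other family genes, Ces2g was at 261 to 392 (median 326) on Soy-20% + SAA and 446 to 548 (median 504) on Soy-10%, without overlap, and rose by 0.61 ± 0.09 (adjusted p = 0.00111), and by 0.54 (adjusted p = 0.0116) without livers 3 to 6. In casein restriction its log2 fold change was 0.22 ± 0.09 (adjusted p = 0.0755). Ces4a did not exceed 44.9 normalized counts and Ces2b did not exceed 15.3 in any liver.

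Genes that work beside carboxylesterases were taken from lists. Of 17 other hydrolases and partners tested, 4 rose and 3 fell in casein restriction, and 5 rose and 3 fell in soy restriction against Soy-20% + SAA, where 24.9% and 17% of all genes were called. Without livers 3 to 6 of Soy-20% + SAA, 2 rose and none fell in soy restriction, where 2.54% of all genes were called. Ephx1, the microsomal epoxide hydrolase, rose by 1.20 ± 0.11 on casein (adjusted p = 8.52e-07) and by 0.69 ± 0.10 on soy (adjusted p = 0.000993), or 0.80 (adjusted p = 0.00896) without those livers. Notum, a secreted hydrolase that inactivates Wnt proteins, rose by 1.11 ± 0.13 on casein (adjusted p = 1.303e-05), and Pon3, a lactonase, by 0.53 ± 0.08 (adjusted p = 7.94e-05). Among soy livers, Notum ranged from 16.2 to 296 on Soy-20% + SAA, 206 to 389 on Soy-20% and 357 to 440 on Soy-10%. Pon3 ranged from 502 to 585, 551 to 671 and 679 to 790 on the same diets. These ranges include livers 3 to 6 of Soy-20% + SAA. Lipe, hormone-sensitive lipase, fell by 0.48 on casein (SE 0.09, adjusted p = 0.00113). Gusb, the beta-glucuronidase held by egasyn and named for that tie, had medians of 161 to 186 by diet and an adjusted p of 0.794 over the 5 diets.

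Of 13 regulators tested, 2 rose and 3 fell in casein restriction, and 1 rose and 2 fell in soy restriction against Soy-20% + SAA, beside the same shares of all genes. Without livers 3 to 6, edgeR called 0 of the 13 in soy restriction (2.54% of all genes), and 5 had an unadjusted p under 0.05 (15.9% of all genes). Cebpa, a hepatocyte transcription factor, fell by 0.56 on casein (SE 0.07, adjusted p = 1.45e-05). Nr1h3, the oxysterol receptor LXR alpha, fell by 0.28 (SE 0.06, adjusted p = 0.00399), and Hnf4a rose by 0.27 ± 0.06 (adjusted p = 0.00496). Ppara, the fatty acid receptor, fell by 0.52 in soy restriction (SE 0.11, adjusted p = 0.00729), and its difference was -0.37 (adjusted p = 0.192) without those livers. Of 9 genes of lipoprotein assembly, 2 fell in casein restriction, where 24.9% of all genes were called. They were Cideb, a lipid droplet protein needed for lipoprotein lipidation, by 0.46 (SE 0.06, adjusted p = 4.61e-05), and Mia2, an export factor, by 0.23 (SE 0.07, adjusted p = 0.0254).

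For the 4 genes whose diet means spanned at least 1 on the log2 scale, the genes of most similar pattern over the 5 diet means were sought among 11430 genes by the root mean square difference of centred log2 means. Paox (0.023) and Ccl9 (0.068) were nearest to Ces3b, and Fam89a (0.066) and Nlrp12 (0.10) to Ces1d. Bhlhb9 (0.17) and Lgals1 (0.17) were nearest to Ces1e, and Sema5b (0.17) and 9130409I23Rik (0.23) to Ces2a. The points share livers and libraries, and the values are a description.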

How the data were processed

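The authors made QuantSeq 3′ libraries from liver RNA, sequenced them on a NextSeq 500 and mapped and counted reads with the QuantSeq pipeline of the Bluebee platform, against GRCm38. The aligner, the annotation release and the treatment of reads that match several genes are not given in the sources used here. The deposited raw counts are whole reads per gene. The deposited normalized signal is those counts divided by 1 DESeq2 size factor per library, per the labels with DESeq2 1.30 in R 4.0.3, without scaling for length. Rows were taken by symbol, and coordinates and 3′ ends from GENCODE M21.

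Counts of 2 diets (12 livers) were fitted with edgeR 4.0.16 in R 4.3.3 after filterByExpr and TMM, and tested with the two-sided quasi-likelihood F test. P-values were adjusted over all genes tested by Benjamini-Hochberg and called at 0.05. SE is the log2 fold change over the square root of F. The casein effect minus the soy effect used 24 livers, and all 5 diets 30. Levels are the normalized signal, and figures were drawn with matplotlib 3.10.9. Alternatives were DESeq2 1.42.0, its size factors in edgeR, other count filters, a replicate block, the GC slope of the library (8780 genes with a mean of at least 50), 1 fit of 30 livers, another soy control and leaving out livers. The edgeR fit of 2 diets was tested on simulated counts for casein restriction and for soy restriction against each control. The other fits were not tested in this way. Depth, 7694015 to 14565542 counts per library, limits the precision.

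All 10 genes were named, other family genes where a row exists, and from each related list at most the 4 with the smallest adjusted p in a restriction. Cyp3a11 and Gusb lie outside that rule. The members and lists were chosen with earlier results of these data known.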

Additional observations from a re-analysis of the deposited data

Results flagged for a closer look

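Ces2b on Cas-5% was at 4.01 normalized counts in liver 5, far from the other livers of that diet, whose median was 0. Ces4a on Cas-5% was at 34.6 in liver 4, against 7.76 to 17.6 in the others. These were 2 of 65 groups of 6 livers examined, and chance alone gives about 1 in 20. The casein effect minus the soy effect on Ces1c was 0.39 on the log2 scale by the test of that difference (edgeR adjusted p = 0.0467).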

How the results depend on the processing

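Counts of the 10 genes called changed by more than 1.5 times under these settings. The share of all genes called under the setting is in brackets. In soy restriction against Soy-20%, DESeq2 called 2 (1.53%). For the added sulfur amino acids, DESeq2 (6.16%) and 1 fit of 30 livers (14.3%) each called 2. Between control diets, the GC slope as a covariate (0.0417%) and leaving out livers 3 to 6 of Soy-20% + SAA (0.024%) each left 1, Ces2a. For the casein effect minus the soy effect, leaving out those livers (2.27%) and no filter on low counts (7.07%) each gave 0. Soy-20% as the soy control gave 3 (5.99%). The difference for Ces1d, -0.05, turned to 0.40 with the GC slope, 0.53 without livers 3 to 6 and 0.76 against unsupplemented soy. The causes were not tested.

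Leaving out 1 liver at a time gave 5 to 7 calls in casein restriction, 3 to 4 and 0 to 1 in soy restriction against Soy-20% + SAA and Soy-20%, 0 to 2 for added sulfur amino acids, 2 to 2 between control diets, 5 to 6 between restricted diets, 0 to 2 for the difference of effects and 9 to 9 over 5 diets. In the same order, the shares of all genes called began with 21.4% to 23.6%, 10.1% to 25.8%, 0.417% to 1.22% and 0% to 13.3%. The further shares were 0.0748% to 15.1%, 8.1% to 10.8%, 5.7% to 15.4% and 36.6% to 48%. The Ces1d difference ranged from -0.25 to 0.064, above 0 without liver 5 or 6 of Cas-20% or liver 4, 5 or 6 of Soy-20% + SAA.

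Same-numbered livers of different diets deviated from their diet means with correlations of -0.24 to 0.34. The median correlation was 0.18 between Cas-5% and Soy-20% + SAA, against -0.003 for livers of these diets with unlike numbers. In the other pairs of diets the same-number median was -0.068 to 0.045. Whether replicate numbers pair livers was not tested. With the replicate block, casein restriction called 6 genes, with Ces2e (adjusted p = 0.0456) in place of Ces1e (0.0698), where 22% of all genes were called. Soy restriction against Soy-20% + SAA then called 3, without Ces1c (0.0629), where 16.8% of all genes were.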
